A study of Mus musculus with 6 samples.

Results

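The Hox genes were taken as every gene of the expression table whose symbol is Hox, a cluster letter a to d and a number, which gave 39 of 24264 genes. They encode homeodomain transcription factors and lie in 4 clusters, and a gene is classed by its cluster and by its paralog group, 1 to 13. Genes of low paralog number lie at one end of a cluster and are known to be expressed far forward along the body axis. Genes of high number lie at the other end and are expressed only farther back, so that the set of Hox genes a tissue expresses reflects its axial level. In lumbar spinal levels, paralog group 10 and the neighbouring groups are known for patterning of the vertebrae and of hindlimb motor neurons. Dorsal root ganglia hold the sensory neurons and satellite glia that arise from the neural crest.

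RNA was sequenced from lumbar dorsal root ganglia of mouse embryos of stage E12.5, on a mixed C57/Bl6 x 129/SvEv background. The 3 miR_cKO libraries carried Wnt1-Cre and were homozygous (flox/flox) for a floxed miR-183-96-182 cluster, which is deleted by Cre under Wnt1, which is active in the dorsal neural tube and neural crest. Of the 3 control libraries, controls 1 and 3 carried the Wnt1-Cre transgene and control 2 was titled wild type. The labels call the 6 samples mice and do not say whether a library pooled embryos, nor from how many ganglia it came, so the p-values measure the spread between these libraries.

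Each library held an estimated 20.2 to 24.3 M reads. The values are read as RPKM, reads per kilobase of transcript and per M reads, so levels can be compared between genes. The tissue label was met by its markers: all 11 sensory neuron markers and all 8 glial markers were measured above 1 RPKM in every library, with summed levels of 430 to 677 RPKM and 829 to 1100 RPKM. Of 16 markers of spinal cord, 9 were under 1 RPKM in all libraries and Mnx1, of motor neurons, was at 0 throughout. By Xist, at 96 RPKM in miR_cKO 1 and under 0.1 RPKM elsewhere, that library stood apart. In bulk tissue, fewer cells of a type and less RNA per cell cannot be told apart.

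The deleted microRNAs are shown first because their seeds, bases 2 to 8, set the sites they can pair with. Mature sequences are from RefSeq (GRCm38.p6) and the capitals mark the seed.
miR-183: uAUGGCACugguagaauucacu
miR-96: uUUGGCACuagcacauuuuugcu
miR-182: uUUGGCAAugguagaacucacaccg
The 3' UTRs of all 39 Hox genes were searched for sites of these seeds (GENCODE M21, mm10). Only 6 Hox genes held one: Hoxa5, Hoxa9, Hoxa10, Hoxa11, Hoxd3 and Hoxd12. The share was 16.1% of the 31 tested Hox genes against 33.5% of the 11227 tested genes searched, at a median UTR length of 845 against 1089 bases. Both 8mers and 2 of the 7mers are printed with the match in capitals, as DNA, each with the position of the match in mm10. They are an 8mer to miR-183 in Hoxd3, an 8mer to miR-182 in Hoxa9, and 7mers in Hoxa5 (miR-96) and Hoxa10 (miR-182).
Hoxd3, chr2:74747319-74747326, plus strand: taaacctgacaGTGCCATAaactgcggacc
Hoxa9, chr6:52223118-52223125, minus strand: atatttaacttTTGCCAAAtaaaatatatt
Hoxa5, chr6:52202219-52202225, minus strand: cacctcgtttaGTGCCAAtgttgtgtgtt
Hoxa10, chr6:52231354-52231360, minus strand: attatgaaaaaTTGCCAAtcttgtttaag
A match is a description of letters and not a measured site.

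Of the 39 Hox genes, 28 were on, defined as at least 1 RPKM in all 6 libraries. A further 4 were off, under 1 RPKM in all 6, and 7 lay at the border, with libraries on both sides. By cluster, 8 of 11 Hoxa genes (chr6:52155367-52260880), 8 of 10 Hoxb genes (chr11:96194316-96368254), 6 of 9 Hoxc genes (chr15:102921131-103036856) and 6 of 9 Hoxd genes (chr2:74668225-74765142) were on. Those on were every member of paralog groups 2 to 10, together with Hoxd1. Off were Hoxa13, Hoxb1, Hoxb13 and Hoxd13. The border genes included Hoxa11, Hoxc11, Hoxc12, Hoxc13, Hoxd11 and Hoxd12, of groups 11 to 13.

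**Figure D1:**
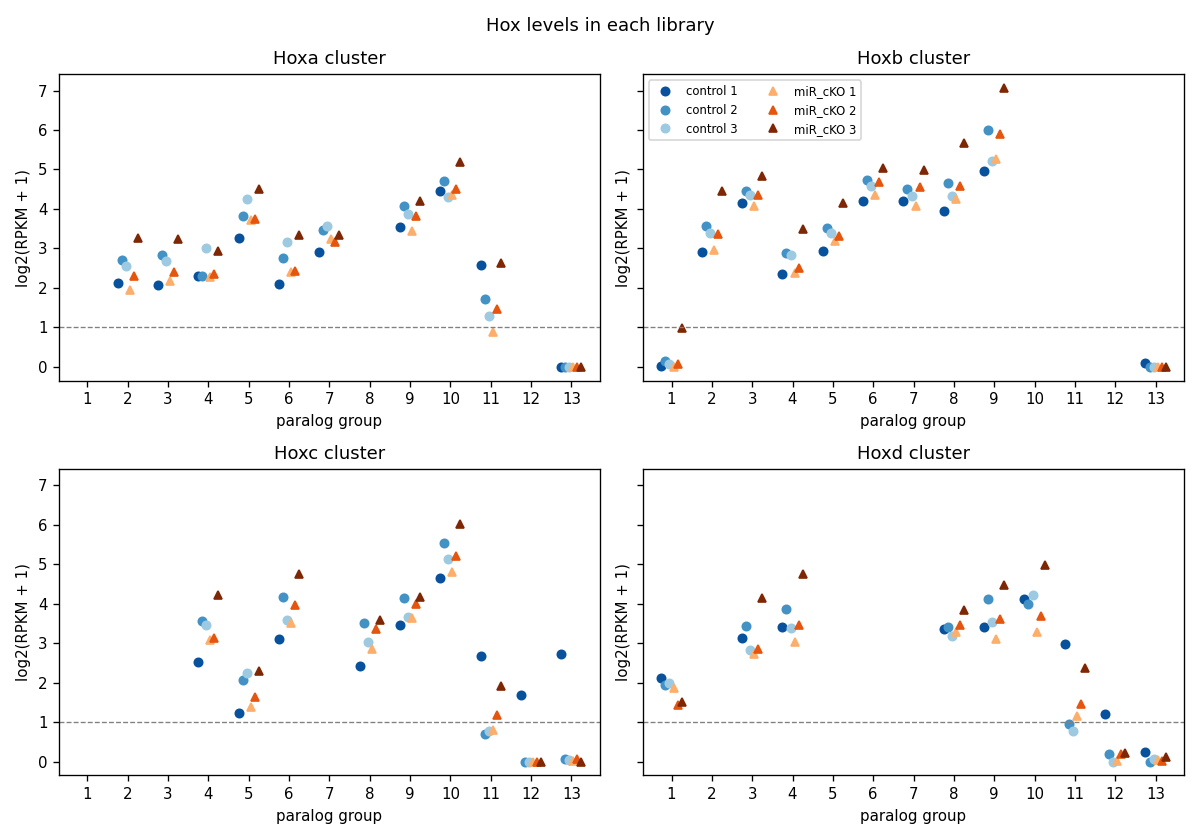
Levels of the reported Hox genes by cluster, with paralog group on the horizontal axis and log2(RPKM + 1) on the vertical axis; circles are control libraries, triangles miR_cKO libraries, and the dashed line is 1 RPKM. In the Hoxa, Hoxc and Hoxd clusters the mean over libraries is highest at group 10 (23.5, 38.4 and 16.7 RPKM) and drops at group 11. In the Hoxb cluster it is highest at group 9 (Hoxb9, 59.7 RPKM).

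Levels were highest just ahead of the drop. Summed over its members and averaged over the 6 libraries, paralog group 9 was at 99.4 RPKM (SD 47.6, n = 6), 23.9% of all Hox RPKM, and paralog group 10 at 78.6 RPKM (SD 26.9, n = 6), 18.9%. Their difference was smaller than the SD over libraries, with group 9 the higher in all libraries except control 1. Group 9 has 4 members and group 10 has 3, so the sums are not levels per gene. Hoxb9 alone had a mean of 59.7 RPKM, and the other members of group 9 had means of 12.7 to 13.6 RPKM. The members of group 10 had means of 16.7 to 38.4 RPKM. Group 11 was at 7.29 RPKM, group 12 at 0.659 RPKM and group 13 at 1.02 RPKM. The lowest library for group 10, at 55.2 RPKM, was above the highest for group 11, at 17.4 RPKM, so these groups did not overlap. Among groups 2 to 8 the mean sums lay between 15.5 RPKM (group 2) and 43.9 RPKM (group 6).

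Hoxb9 was the highest single Hox gene, at 30.3, 63.1 and 36.4 RPKM in controls 1 to 3 and 37.3, 58.8 and 132 RPKM in miR_cKO 1 to 3. Hoxb9 is the most posterior gene of its cluster before Hoxb13. Hoxc10, a lumbar gene of the Hoxc cluster, was at 24.0, 45.7 and 34.3 RPKM in controls and 26.9, 36.3 and 63.5 RPKM in miR_cKO. Hoxa10 was at 21, 24.9 and 18.6 RPKM in controls and 19.6, 21.5 and 35.2 RPKM in miR_cKO. Hoxd10, known with Hoxc10 and Hoxa10 for hindlimb motor neuron identity in the adjoining spinal cord, was at 16.4, 14.9 and 17.7 RPKM in controls and 8.73, 11.8 and 30.5 RPKM in miR_cKO. In all 4 genes miR_cKO 3 was the highest library, and the groups overlapped. The Hoxc10 and Hoxc5 exons share 166 bases in the annotation, and Hoxd3 and Hoxd4 share 388, so the values of these 4 genes are uncertain where reads could be assigned to either.

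At the anterior end, Hoxd1 was on while Hoxb1 was under 1 RPKM in every library. Hoxb1, a rhombomere marker in the hindbrain, was at 0.0221, 0.0988 and 0.0475 RPKM in controls, 0 and 0.0432 RPKM in miR_cKO 1 and 2, and 0.967 RPKM in miR_cKO 3. The underlying estimated reads were 1, 5 and 2 in controls and 0, 2 and 42 in miR_cKO 1 to 3, so most Hoxb1 reads came from miR_cKO 3. The Hoxb cluster members of groups 2 to 9 were on in all libraries, from Hoxb4 (means 5.55 RPKM in controls and 6.40 RPKM in miR_cKO) to Hoxb9.

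Promoter sequence was in hand for 22 of the 39 Hox genes (RefSeq, GRCm38.p6, windows of 300 bases around the annotated start). The windows had a median GC content of 56.8% against 52.7% for all 32851 windows, and a median of 13.5 CpG dinucleotides against 7. Motifs were searched on both strands: TTTATG, bound by CDX factors, was found in 22.7% of the Hox genes and 11.9% of all windows, and TGATNNAT, a PBX-HOX motif, in 18.2% and 8.85%. TGACAG, a MEIS motif, was found in 9.09% of the Hox genes and 19.2% of all windows, and TATAAA in 18.2% and 13.6%. A Hox gene counted where any of its windows matched, so shares per gene and per window are not in like units. Hoxd11 counted for CDX by a window that is not shown. Windows of 4 Hox genes are printed, with all matches in capitals. Hoxb8 and Hoxb1 had miR_cKO 3 values far above those of the other libraries. Hoxd10 and Hoxd11 lie on either side of the drop in level. The choice is not a full list: Hoxd4, whose window is not shown, had a miR_cKO 3 value 2.59 times the mean of the other libraries. For Hoxb8 that ratio was 2.51. Hoxb8 held CDX, PBX-HOX and TATA matches, Hoxb1 a PBX-HOX match, the Hoxd11 window shown a PBX-HOX match, and Hoxd10 none of the 4 motifs. Overlapping letters of different motifs are merged in the capitals.
Hoxb8, chr11:96281655-96281954, plus strand: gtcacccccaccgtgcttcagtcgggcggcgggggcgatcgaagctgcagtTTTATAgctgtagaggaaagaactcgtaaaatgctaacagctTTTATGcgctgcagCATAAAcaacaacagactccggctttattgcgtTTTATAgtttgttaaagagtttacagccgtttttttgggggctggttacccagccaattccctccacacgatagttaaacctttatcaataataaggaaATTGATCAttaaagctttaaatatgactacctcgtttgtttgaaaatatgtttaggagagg
Hoxb1, chr11:96365508-96365807, plus strand: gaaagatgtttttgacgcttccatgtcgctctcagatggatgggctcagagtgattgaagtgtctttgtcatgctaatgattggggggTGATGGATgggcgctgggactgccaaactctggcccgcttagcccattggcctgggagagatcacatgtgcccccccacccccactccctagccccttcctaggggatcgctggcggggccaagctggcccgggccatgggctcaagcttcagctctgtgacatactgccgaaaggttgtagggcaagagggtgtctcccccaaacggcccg
Hoxd10, chr2:74691641-74691940, plus strand: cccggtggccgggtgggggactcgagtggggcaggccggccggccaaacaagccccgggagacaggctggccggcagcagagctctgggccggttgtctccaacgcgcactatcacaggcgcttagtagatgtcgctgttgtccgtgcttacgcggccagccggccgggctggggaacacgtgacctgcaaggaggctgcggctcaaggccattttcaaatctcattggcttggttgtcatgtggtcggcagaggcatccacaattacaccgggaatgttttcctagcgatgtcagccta
Hoxd11, chr2:74682073-74682372, plus strand: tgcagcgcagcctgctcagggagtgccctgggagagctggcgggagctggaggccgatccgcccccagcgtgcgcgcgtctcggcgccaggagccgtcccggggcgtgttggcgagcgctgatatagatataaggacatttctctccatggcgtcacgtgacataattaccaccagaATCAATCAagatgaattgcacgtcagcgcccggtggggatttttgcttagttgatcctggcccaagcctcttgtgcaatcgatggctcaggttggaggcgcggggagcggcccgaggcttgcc

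The total Hox level varied within each group. Summed over the 39 genes it was 309.3, 444.5 and 363.9 RPKM in controls 1 to 3 and 297.4, 383.8 and 699.6 RPKM in miR_cKO 1 to 3. The highest and the lowest libraries were both miR_cKO. The distribution over clusters moved less: Hoxb made up 36.8% to 45.9% of the total, Hoxa 17.6% to 24.2%, Hoxc 20.3% to 23.5% and Hoxd 13.8% to 20.8%.

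**Figure D2:**
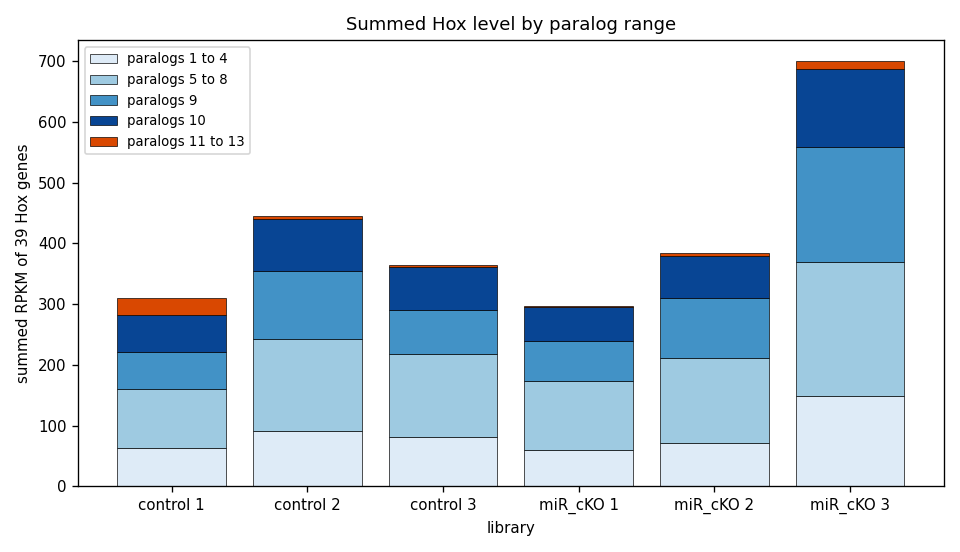
Summed RPKM of the 39 Hox genes in each library, in bars from 0 that are divided by paralog range. Library miR_cKO 3 has the tallest bar, 699.6 RPKM, and control 1 has the largest part from paralogs 11 to 13.

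In miR_cKO 3 the excess was broad. Of the 31 Hox genes tested (those with at least 1 RPKM in at least 3 libraries), 26 were highest in miR_cKO 3, or 83.9%, against 20.7% of all 13118 tested genes. Control 2 was second for 20 of the 31. Over the 28 genes that were on, the ratio of miR_cKO 3 to the mean of the other 5 libraries had a median of 1.82 and ran from 0.694 (Hoxd1) to 2.93 (Hoxb9). The median ratio over all tested genes was 1. The excess was present from paralog group 2 to group 11. In group 1, Hoxb1 was also highest in miR_cKO 3, while Hoxd1 was not. On the log2(RPKM + 1) scale the median difference of miR_cKO 3 from the 6-library mean was 0.77 for paralogs 1 to 4, 0.54 for 5 to 8, 0.57 for 9, 0.78 for 10 and 0.76 for the 3 tested genes of group 11. For groups 11, 12 and 13 control 1 was the highest library. Their sums in miR_cKO 3 were 12.2, 0.152 and 0.0776 RPKM, under the 17.4, 3.49 and 5.82 RPKM of control 1. Outside control 1, the sums of groups 12 and 13 were 0.152 RPKM or less in every library. Values so near 0 cannot show whether these 2 groups shared the excess. Hoxb9 and Hoxb8 (14.5, 24.4 and 18.9 RPKM in controls, 18.2, 22.8 and 49.5 RPKM in miR_cKO) had the largest ratios among the Hoxb genes of groups 2 to 9.

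Values that moved with miR_cKO 3 stand beside this. The summed level of the spinal cord markers was 43.2 RPKM there against 18.4 to 23.5 RPKM in the other 5 libraries. Sox2, which glia also express, made up 29.1 RPKM of it and 12.2 to 18.6 RPKM of the other sums. Pax2 (4.66 RPKM), Pax6 (3.59 RPKM) and Lbx1 (1.72 RPKM) were also highest in miR_cKO 3, while Nkx6-1 (0.978 RPKM), Nkx6-2 (1.02 RPKM), En1 (0.132 RPKM) and Olig2 (0.0197 RPKM) were not; these genes were named after their values were seen. Wnt1, whose promoter drives the Cre, reached 4.56 RPKM in miR_cKO 3, with 1.88 RPKM in miR_cKO 2, 1.38 RPKM in control 1 and 0.147 to 0.319 RPKM in the remaining libraries. Sensory neuron markers summed to 430 RPKM there, the lowest of the 6, against 506 to 677 RPKM. Limb mesenchyme markers summed to 11.7 RPKM, between the 13.4 RPKM of control 2 and the 2.81 RPKM of miR_cKO 1. The part of these values in the Hox levels was not tested.

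Control 1 stood apart at the posterior end. Hoxc13 was at 5.57 RPKM there, from an estimated 293 reads, and at 0.0509 RPKM or less in the other 5 libraries, from 0 to 3 reads. Hoxc12 was at 2.20 RPKM there and at 0 in the others. Hoxd12 was at 1.30 RPKM there and at 0.152 RPKM or less in the others. Hoxc11 was at 5.41 RPKM in control 1, 0.636 and 0.713 RPKM in controls 2 and 3, and 0.732, 1.25 and 2.76 RPKM in miR_cKO. Hoxd11 was at 6.95, 0.948 and 0.696 RPKM in controls and 1.22, 1.73 and 4.20 RPKM in miR_cKO. Hoxa11 was at 5.01, 2.26 and 1.43 RPKM in controls and 0.831, 1.77 and 5.19 RPKM in miR_cKO, with miR_cKO 3 just above control 1. For Hoxc11 and Hoxd11 miR_cKO 3 was second, and the groups overlapped.

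**Figure D3:**
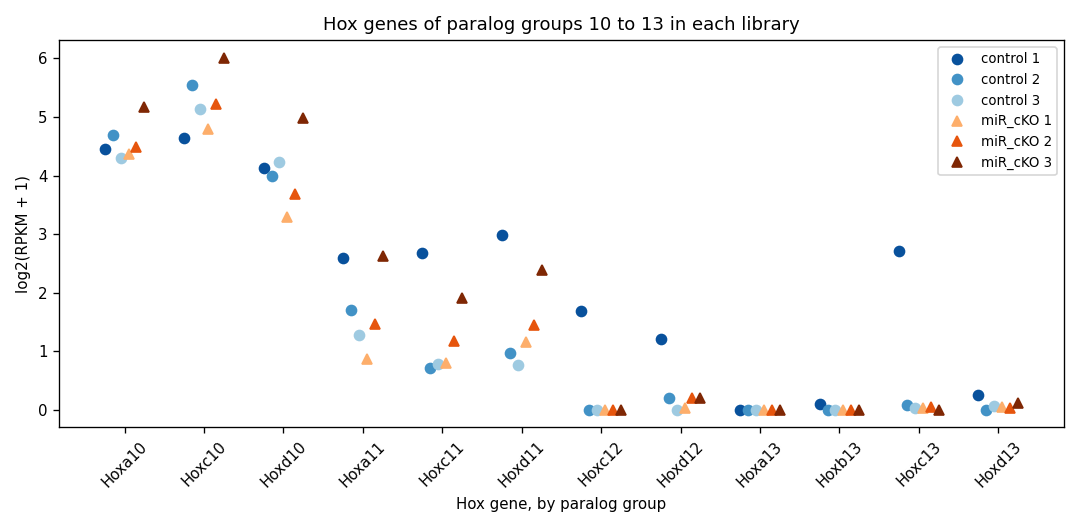
Level, as log2(RPKM + 1), of the 12 Hox genes of paralog groups 10 to 13 in each library; circles are control and triangles miR_cKO libraries. Control 1 is the highest library for Hoxc11, Hoxc12, Hoxc13, Hoxd11 and Hoxd12, and miR_cKO 3 for all 3 genes of group 10.

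Paralogs 11 to 13 together made up 8.63% of the summed Hox RPKM in control 1, against 0.909% and 0.798% in controls 2 and 3 and 0.959%, 1.29% and 1.77% in miR_cKO 1 to 3. The rest of the profile was not raised in control 1: the median difference from the 6-library mean was 1.34 for paralogs 11 to 13 and between -0.57 and -0.12 for the other ranges. It had the lowest value of 16 of the 31 tested Hox genes, where 18.1% of all tested genes were lowest in that library. The mean paralog number weighted by RPKM was 7.46 in control 1 and 6.96 to 7.26 in the other libraries. Hotair, the non-coding RNA encoded between Hoxc11 and Hoxc12 and chosen here after its values were seen, was at 3.96 RPKM in control 1, 0.130 and 0.134 RPKM in controls 2 and 3, and 0.180, 0.142 and 0.432 RPKM in miR_cKO. Limb mesenchyme markers summed to 5.31 RPKM in control 1, within the range of 2.81 to 13.4 RPKM of the others. Of that list, Prrx1 was at 3.27 RPKM in control 1 and 2.04 to 9.56 RPKM in the others. Prrx2 was at 0.705 RPKM there and 0.415 to 2.36 RPKM elsewhere, and Msx1 at 1.11 RPKM and 0.228 to 1.37 RPKM. Tbx4 and Pitx1, named after their values were seen, were under 0.2 RPKM in all libraries. The labels say nothing of the exact lumbar level of each dissection, and its part in these values was not tested.

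**Figure D4:**
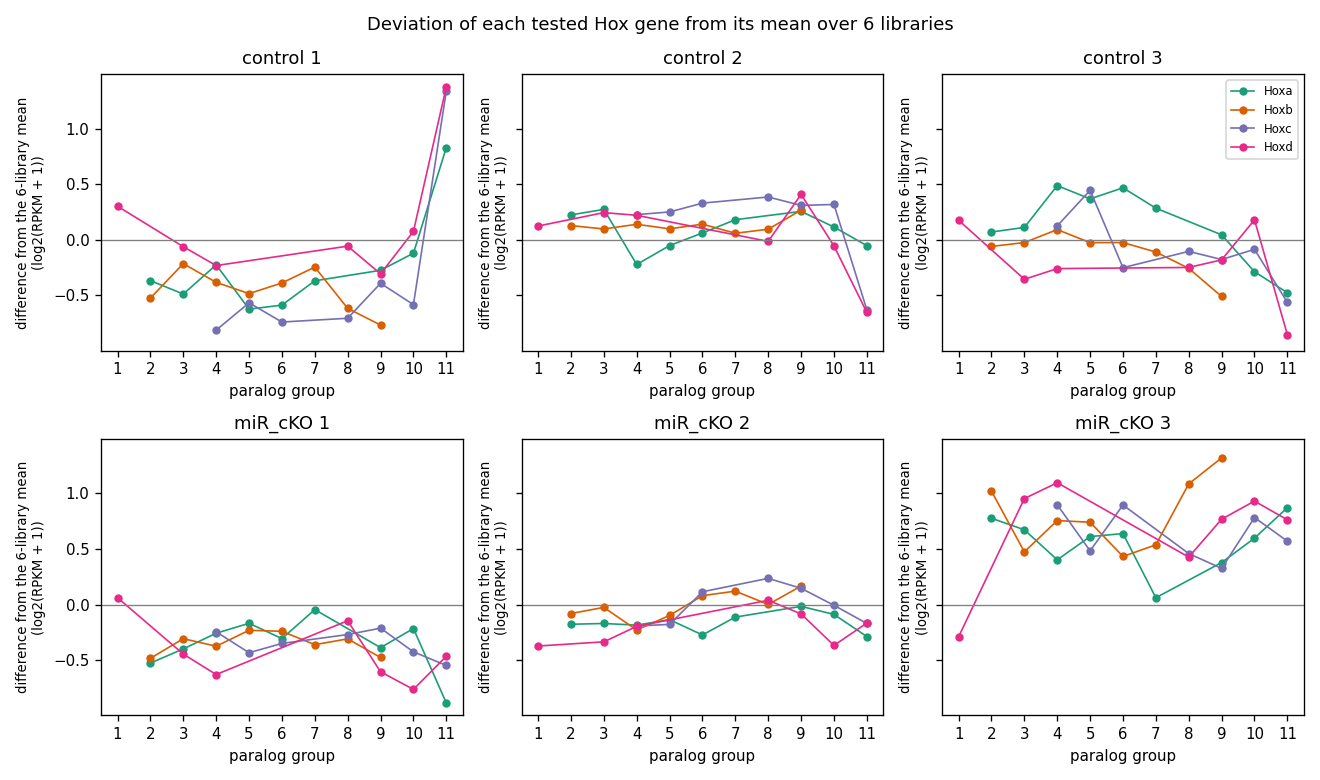
Difference of each tested Hox gene from its mean over the 6 libraries, on the log2(RPKM + 1) scale, with paralog group on the horizontal axis and 1 line per cluster, in 1 panel per library. Control 1 lies below 0 for most genes and above it at paralog group 11, and miR_cKO 3 lies above 0 for 30 of 31 genes.

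The comparison of miR_cKO with control asked whether the Hox profile changes when the 3 microRNAs are lost. No tested Hox gene passed the test (limma with Benjamini-Hochberg adjustment over all tested genes), 0 of 31, against 8 of 13118 genes or 0.061% over the table. At an unadjusted p under 0.05 there was 1 Hox gene, where the share over all genes was 5.16%. The other 15 fits made with other settings or libraries also called 0 Hox genes. The groups did not overlap for 1 of the 31, or 3.23%, against 10.9% of all tested genes. The median SE of a tested Hox gene was 0.33 on the log2 scale, and that of all tested genes 0.11, so differences between groups were measured less precisely for Hox genes. A p that misses the threshold does not show that the levels were equal.

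That gene was Hoxd1, at 3.31, 2.81 and 2.95 RPKM in controls and 2.65, 1.70 and 1.86 RPKM in miR_cKO. All 3 miR_cKO libraries were below all 3 controls. The log2 change was -0.40 (SE 0.14, limma adjusted p = 0.835), and the two-sided exact permutation p was 0.1, the smallest that 3 against 3 libraries allow. With a minimum of 3 RPKM Hoxd1 was not tested. Under the 14 other alternatives its limma adjusted p ran from 0.415 to 1, and its log2 change was below 0 in each of these 14. Hoxd1 is known in the mouse for expression in nociceptive sensory neurons.

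The other changes were mostly above 0, and most of them turned sign when 1 library or another was left out. Hoxb6, Hoxb8, Hoxb9, Hoxc6, Hoxc8, Hoxc9 and Hoxd8 stayed above 0 whichever single library was left out. Of the 31 changes, 23 were above 0 and 8 below, or 74.2% above, against 40.4% of all tested genes. The median log2 change was 0.12, beside -0.024 over all tested genes. Without miR_cKO 3 the median was -0.12, with 7 of 30 genes above 0, and without miR_cKO 1 it was 0.34, with 29 of 31 above 0. Without control 1 it was 0.01, with 16 of 30 above 0, and without control 2 it was 0.26. Without controls 2 and 3 it was 0.39, with 26 of 31 above 0 and 3 at an unadjusted p under 0.05, where the share of all tested genes in that fit was 3.08%. Without both control 1 and miR_cKO 3, which were chosen for their Hox values after the data were seen, it was -0.32, with 1 of 29 above 0 and 8 at an unadjusted p under 0.05, where the share of all tested genes in that fit was 6.83%.

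**Figure D5:**
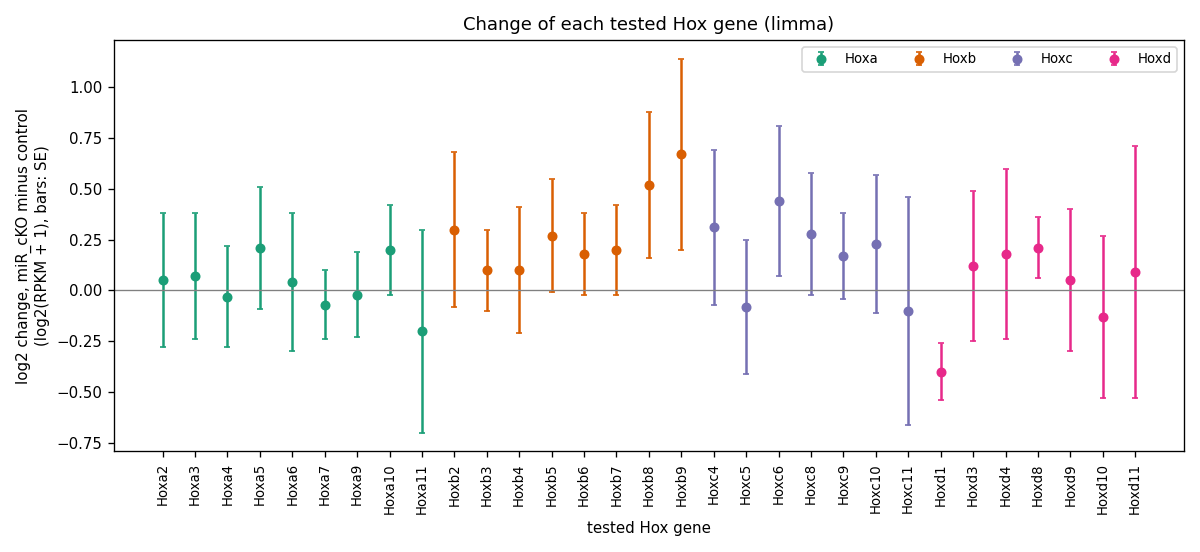
Log2 change (miR_cKO minus control, log2(RPKM + 1) scale) of the 31 tested Hox genes, with bars of 1 SE from limma, coloured by cluster. Hoxd1 lies at -0.40, Hoxb9 at 0.67 and all 8 Hoxb genes above 0 (3 of 8 without miR_cKO 3), with no gene past the adjusted threshold.

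By cluster, all 8 tested Hoxb genes had a log2 change above 0, with a median of 0.24, against 5 of 9 Hoxa genes (0.04), 5 of 7 Hoxc genes (0.23) and 5 of 7 Hoxd genes (0.09). Without miR_cKO 3, 3 of the 8 Hoxb genes were above 0, and without control 1, 7 of 8. The changes were 0.67 for Hoxb9 (SE 0.47) and 0.52 for Hoxb8 (SE 0.36), and Hoxc6 had 0.44 (SE 0.37). Without miR_cKO 3 the change was 0.18 for Hoxb9, 0.10 for Hoxb8 and 0.10 for Hoxc6. By paralog range the medians were 0.10 for groups 1 to 4, 0.21 for 5 to 8, 0.11 for 9, 0.20 for 10 and -0.10 for 11 to 13. Without miR_cKO 3 these medians were all below 0, at -0.25, -0.019, -0.078, -0.10 and -0.48. For 11 to 13 the median was 0.48 without control 1.

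The 5 tested Hox genes with a seed site had a median log2 change of 0.12, with 3 of 5 above 0. The 26 without one had a median of 0.14, with 20 of 26 above 0. The log2 change of Hoxa10, whose site is printed above, was 0.20 (SE 0.22), that of Hoxa5 0.21 (SE 0.30), that of Hoxd3 0.12 (SE 0.37) and that of Hoxa9 -0.02 (SE 0.21).

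Other genes of the pathway were taken from 4 lists. Of the TALE cofactors, which bind DNA with Hox proteins, all 9 were tested and 0 passed, with 4 above and 5 below 0. Meis3 was at 53.0 RPKM ± 3.00 in controls and 54.1 ± 4.41 after deletion (SD, n = 3 each), and Pbx2 at 40.2 ± 5.20 and 39.3 ± 4.21. Of 12 upstream axial regulators, 8 were tested and 0 passed, with 2 above and 6 below 0. Cdx4 was at 0 and Cdx1 and Cdx2, caudal factors that act on Hox clusters in the early embryo, were at 0.0233 RPKM or less. Aldh1a2, which makes retinoic acid, was at 21.4 ± 3.70 and 21 ± 4.73 RPKM, Gdf11 at 21.8 ± 3.34 and 18.4 ± 2.09, and Rarb at 6.83 ± 3.29 and 8.90 ± 8.82. Of 24 Polycomb and Trithorax genes, which hold Hox clusters off or on, 22 were tested and 0 passed, with 14 above and 8 below 0. Ezh2 was at 59.8 ± 11.3 and 64.7 ± 13.8 RPKM, Phc2 at 46.7 ± 5.31 and 44.8 ± 0.531, and Ash2l at 44.1 ± 1.68 and 47.3 ± 1.95. Of 14 non-coding RNAs of the clusters, 9 were in the table, 3 were tested and 0 passed.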

How the data were processed

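RNA was sequenced from 6 libraries. Per the submitters' processing notes, Bowtie was used with the mm10 genome; its version, the counting tool and the use of strand in counting were not found in the labels or the header. A single table was deposited by the authors, with 24264 genes. In it the header names no unit. The deposited values, written with a decimal comma, were read as RPKM, since they step in whole reads with a step that falls with transcript length (Spearman rho -0.905 across 897 genes, which are not independent). RPKM and FPKM cannot be told apart. Values came out as whole reads, to within 0.01 read, for 94.9% of genes above 0 in at least 2 libraries and for 35 of the 39 Hox genes; this gave the depth estimates, while the tests used the deposited values. Replicate libraries differed beyond sampling noise, with a mean squared difference of 10.5 to 101 times the sampling variance per gene (median 1.8 to 5.99). The pairs with miR_cKO 1 were at 94.9 and 101 (median 5.15 and 5.99), and the other pairs at 10.5 to 17.2 (median 1.8 to 3.29).

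Values were transformed to log2(RPKM + 1), genes kept at 1 RPKM or more in at least 3 libraries, and groups compared with limma 3.58.1 in R 4.3.3 (trend and robust empirical Bayes, Benjamini-Hochberg over 13118 genes, threshold 0.05). The log2 scale with pseudocount 1 understates changes of low genes. The fit was tested on simulated data. Python 3.11.15, NumPy 2.4.6, pandas 2.3.3, SciPy 1.17.1 and matplotlib 3.10.9 were used. The Hox members, lists and tests were chosen with earlier results of these data known. Named genes are all Hox genes and, of each list of other genes, the 3 with the highest mean; exceptions are stated, and some of these genes are not reported here. Marker lists covered sensory neurons, glia, spinal cord, mesenchyme, limb mesenchyme, cartilage, skeletal muscle and endothelium. Seed sites were 8mers and 7mers in the 3' UTR of 1 main transcript per gene.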

Additional observations from a re-analysis of the deposited data

How the results depend on the processing

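No Hox gene was called under any of the 16 settings tried. The lowest adjusted p of a Hox gene ran from 0.415 (without miR_cKO 1) to 1 (without controls 2 and 3). Other scalings, a pseudocount of 0.1 RPKM, no filter on low values, a minimum of 3 RPKM and a fit without trend left 0 or 1 Hox gene at an unadjusted p under 0.05. Median centring turned the sign of the log2 change of Hoxa4 0.003 and Hoxa9 0.012. Leaving out controls 2 and 3 together turned that of Hoxa4 0.21, Hoxa7 0.34, Hoxa9 0.26, Hoxc5 0.53 and Hoxd11 -1.3. Leaving out control 1 and miR_cKO 3 together, chosen after the data were seen, turned that of Hoxa2 -0.5, Hoxa3 -0.48, Hoxa5 -0.31, Hoxa6 -0.56, Hoxa10 -0.067, Hoxb2 -0.32, Hoxb3 -0.2, Hoxb4 -0.42, Hoxb5 -0.2, Hoxb6 -0.14, Hoxb7 -0.093, Hoxb8 -0.074, Hoxb9 -0.032, Hoxc4 -0.39, Hoxc6 -0.16, Hoxc8 -0.16, Hoxc9 -0.1, Hoxc10 -0.33, Hoxd3 -0.33, Hoxd4 -0.39 and Hoxd9 -0.46.

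Leaving out 1 library at a time turned the sign of the log2 change of 23 genes, and their values then ran as follows: Hoxa2 -0.33 to 0.33, Hoxa3 -0.25 to 0.29, Hoxa5 -0.054 to 0.44, Hoxa6 -0.27 to 0.28, Hoxa11 -0.69 to 0.19, Hoxb4 -0.25 to 0.32, Hoxc4 -0.064 to 0.51, Hoxc10 -0.1 to 0.51, Hoxd9 -0.32 to 0.36, Hoxa7 -0.27 to 0.062, Hoxa9 -0.21 to 0.17, Hoxc5 -0.39 to 0.12, Hoxd11 -0.32 to 0.8, Hoxa4 -0.23 to 0.21, Hoxd3 -0.33 to 0.37, Hoxc11 -0.44 to 0.15, Hoxd10 -0.63 to 0.22, Hoxa10 -0.054 to 0.35, Hoxb2 -0.13 to 0.62, Hoxb3 -0.12 to 0.27, Hoxb5 -0.027 to 0.46, Hoxb7 -0.019 to 0.43, Hoxd4 -0.32 to 0.54. A fit that leaves a group with 1 library assumes that it varies like the other. The weighted mean paralog number moved with log2 weights (control 1 7.11, the others 6.45 to 6.63), and control 1 stayed highest. The causes were not tested.

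With the replicate number as a replicate block, 0 Hox genes were called and the lowest adjusted p was 0.609 (Hoxd1, log2 change -0.40). Deviations of same-numbered libraries correlated at 0.359, 0.330 and -0.221 over the tested genes, and those of differently numbered libraries at -0.7 to 0.524. The deviations within a group sum to 0, so these values cannot settle whether same-numbered libraries were paired. The depth and the 3 libraries per group limit all values at or under 1 RPKM.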

Other observations

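Among genes beside the Hox clusters, each chosen after its values were seen, Meis1 and Meis2, TALE cofactors, had their highest value in miR_cKO 3, like the Hox genes: Meis1 was at 7.10, 14.8 and 14 RPKM in controls and 6.70, 8.18 and 20.3 RPKM in miR_cKO, and Meis2 at 13.9, 20.3 and 20.3 RPKM in controls and 11.6, 11.9 and 25.3 RPKM in miR_cKO. Rarb, a retinoic acid receptor, was at 3.37, 7.20 and 9.92 RPKM in controls and 2.86, 4.83 and 19.0 RPKM in miR_cKO. The groups overlapped for Meis1, Meis2 and Rarb. Not all TALE cofactors followed: Meis3 was lowest in miR_cKO 3, at 49.7 RPKM against 51.2 to 58.5 RPKM elsewhere. Pbx2 was at 41.4 RPKM there and highest in control 2, at 45.9 RPKM. Lin28a, an RNA-binding protein of early embryos, was at 0.645, 0.949 and 0.462 RPKM in controls and 1.53, 2.38 and 1.60 RPKM in miR_cKO. Its log2 change was 0.75 (limma adjusted p = 0.402). All its controls were under 1 RPKM, so Lin28a passed the filter only through its miR_cKO values. That alone sets the groups apart and the change above 0, so neither is a result. Over all tested genes the groups were apart for 10.9%.

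The other marker lists gave summed levels, in controls 1 to 3 and miR_cKO 1 to 3, of 239, 401, 438, 211, 281 and 307 RPKM for mesenchyme, 21.3, 76.4, 72.5, 22.4, 32.7 and 66.1 RPKM for cartilage, 30.6, 173, 135, 29.4, 31.8 and 41.5 RPKM for skeletal muscle and 58.6, 66.1, 64.6, 56.7, 82.3 and 63.1 RPKM for endothelium. Controls 2 and 3 were the highest libraries for skeletal muscle and mesenchyme, and no gene of the 8 marker lists passed the limma threshold.

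Hoxa11as, antisense to Hoxa11, was at 2.95, 1.09 and 0.720 RPKM in controls and 0.503, 1.29 and 2.92 RPKM in miR_cKO, with control 1 and miR_cKO 3 highest, as for Hoxa11. Without strand in the counting the 2 genes cannot be told apart. Mir196a-1, which encodes a microRNA in the Hoxb cluster, was at 12.1 to 14.1 RPKM in controls and 12.4 to 18.8 RPKM in miR_cKO.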
